A study of Mus musculus with 2 samples.

Results

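The genes that encode matrix proteases and their inhibitors were described by the open chromatin around them in mouse adipocytes. The 50 genes were all protein-coding genes of the GENCODE M21 annotation whose symbol is Timp, Mmp, Adamts or Adamtsl followed by a number, out of 21938 protein-coding genes. They comprised 4 Timp, 22 Mmp, 19 Adamts and 5 Adamtsl genes. Mmp1a, annotated in that release as a polymorphic pseudogene, was not a member. Open chromatin was mapped by DNase-seq, in which the endonuclease DNase I cuts accessible DNA and the cut sites are sequenced. The cells had been differentiated in culture for 8 days from 3T3-L1, an established line of preadipocytes, which store lipid once induced. There were 2 libraries, biological replicates 1 and 2 of this 1 group, and both cultures carried the same donor record. The strain was labelled C57BL/6J, whereas 3T3-L1 is generally described as a Swiss mouse line. Undifferentiated cells or other controls were not analysed here, and no comparison between conditions could be made.

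Matrix metalloproteinases (Mmp) are zinc enzymes that are made as inactive precursors and cut collagens, other matrix proteins and cell surface proteins once activated. The Adamts enzymes are secreted relatives that trim procollagens and cut large proteoglycans such as versican and aggrecan. The Adamtsl proteins resemble them but lack the catalytic domain. Timp proteins bind the active site of these enzymes and block it. In adipose tissue the enzymes remodel the collagen network around growing fat cells, and Mmp14 is known as a collagenase needed for that remodelling. Several Mmp genes stand side by side on mouse chromosome 9, and AP-1, a family of stress- and growth-responsive transcription factors, is the classic regulator of their promoters.

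A peak here is a short region of raised cutting that the authors called in 1 library. A shared peak is an interval where peaks of both libraries overlap by at least 1 bp. A gene had a promoter peak in both libraries when a peak of each overlapped within 1000 bp of a start site of any of its annotated transcripts. A distal peak had its centre over 1000 bp away from all protein-coding start sites, and the nearest of these within 100 kb gave its gene. Each peak carries the authors' own value, from 1 to 150, read here only as a rank, and its percentile is that rank in the list of its library. The libraries held 133695 and 216556 peaks, of which 298 and 480 were distal peaks of the 50 genes. The sequencing depth was unknown, so a missing peak may lie below what a library could show, and no interval could be given for a single peak. Markers were checked by promoter peaks in both libraries, which 57.2% of all protein-coding genes had. They were present at 7 of 7 adipocyte genes and at 4 of 5 preadipocyte and fibroblast genes (Dlk1 had none). Of markers of other cell types, 1 of 5 blood and immune genes (Csf1r), 0 of 4 endothelial genes and 1 of 3 muscle genes (Des) had one. In replicate 2 alone a promoter peak was also found at Cd68 (97) and Adgre1 (57) of blood and at Pecam1 (84) and Tek (54) of endothelium. In replicate 2 this gives 60.0% and 50% of these 2 lists, beside 61.7% of all protein-coding genes. The part of other cells in the results was not tested.

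Among the 263 distal shared peaks of the 50 genes, the strongest at each of the 5 genes with the most such peaks are printed first, since they are the most accessible sites away from the starts of Adamts2, Adamts9, Timp3, Adamts1 and Adamts12. All peak sequences are on the plus strand of GRCm38 (mm10), in lower case, with matches to AP-1 (TGACTCA) or C/EBP (TTGCNNAA), searched on both strands, in capitals. C/EBP factors drive adipocyte differentiation. Over the whole peak the Adamts1 sequence held 2 AP-1 matches, the Adamts12 sequence held 1 C/EBP match on the minus strand, and the other 3 held neither.
Adamts2, chr11:50669576-50669745: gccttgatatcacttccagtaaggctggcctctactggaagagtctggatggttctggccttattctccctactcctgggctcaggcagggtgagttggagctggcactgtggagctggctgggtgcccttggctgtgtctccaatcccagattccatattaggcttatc
Adamts9, chr6:92941436-92941605: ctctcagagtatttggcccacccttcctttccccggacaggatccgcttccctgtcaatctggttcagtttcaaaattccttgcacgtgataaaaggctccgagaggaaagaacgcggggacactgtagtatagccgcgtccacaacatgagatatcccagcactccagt
Timp3, chr10:86339736-86339925: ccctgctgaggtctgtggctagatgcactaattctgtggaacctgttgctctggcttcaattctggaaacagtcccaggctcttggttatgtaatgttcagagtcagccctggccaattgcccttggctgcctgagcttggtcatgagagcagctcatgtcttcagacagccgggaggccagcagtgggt
Adamts1, chr16:85756216-85756505: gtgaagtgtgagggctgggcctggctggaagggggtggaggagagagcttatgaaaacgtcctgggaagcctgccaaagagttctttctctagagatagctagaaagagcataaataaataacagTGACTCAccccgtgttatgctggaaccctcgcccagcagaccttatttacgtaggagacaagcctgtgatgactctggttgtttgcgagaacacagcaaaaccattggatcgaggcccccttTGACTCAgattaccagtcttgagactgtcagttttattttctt
Adamts12, chr15:11116436-11116605: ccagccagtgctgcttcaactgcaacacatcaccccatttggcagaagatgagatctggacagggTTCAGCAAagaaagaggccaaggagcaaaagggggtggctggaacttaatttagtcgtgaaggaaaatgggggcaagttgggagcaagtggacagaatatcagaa

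Further peaks are printed for the motifs they hold. The Timp3 peak was the single peak of the 263 with both an AP-1 and a C/EBP match in its central 150 bp. In the same central window the Mmp19 peak held the only match to the glucocorticoid receptor consensus GNACANNNTGTNC, together with an AP-1 match, and the Mmp28 peak held 1 of 2 matches to the PPAR-RXR consensus AGGNCANAGGNCA. Glucocorticoid receptor and PPAR-RXR, the receptor pair of adipocyte differentiation, were chosen for printing after the matches had been seen. Capitals mark matches over the whole peak.
Timp3, chr10:86307356-86307525: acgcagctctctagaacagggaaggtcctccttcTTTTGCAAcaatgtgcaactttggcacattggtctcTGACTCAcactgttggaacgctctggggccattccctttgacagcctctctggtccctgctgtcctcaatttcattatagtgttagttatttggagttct
Mmp19, chr10:128779536-128779685: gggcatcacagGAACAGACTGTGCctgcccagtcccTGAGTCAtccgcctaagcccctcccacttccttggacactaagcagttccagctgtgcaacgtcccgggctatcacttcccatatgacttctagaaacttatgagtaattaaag
Mmp28, chr11:83454636-83454805: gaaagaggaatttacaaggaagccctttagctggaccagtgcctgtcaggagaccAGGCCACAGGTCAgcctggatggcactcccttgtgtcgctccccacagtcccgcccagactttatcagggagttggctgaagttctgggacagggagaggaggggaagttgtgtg

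Promoters come from RefSeq (GRCm38.p6), which matched 35 of the 50 genes. The bases before the start of 5 Mmp genes of the chromosome 9 cluster are printed, 250 for Mmp13 and Mmp12 and the last 100 for Mmp3, Mmp10 and Mmp7, because each holds an AP-1 match close to the start. The promoters of Adamts1 and Mmp14, whose promoter peaks were among the strongest of the 50 genes, are set beside them and were chosen, like those of Mmp3, Mmp10 and Mmp7, after values had been seen. Sequences run 5′ to 3′ on the strand of the gene, which is minus for Adamts1 and plus for the others, and capitals mark AP-1 (TGACTCA on either strand) and TATA box (TATAAA on the gene strand) matches.
Mmp13, chr9:7272264-7272513: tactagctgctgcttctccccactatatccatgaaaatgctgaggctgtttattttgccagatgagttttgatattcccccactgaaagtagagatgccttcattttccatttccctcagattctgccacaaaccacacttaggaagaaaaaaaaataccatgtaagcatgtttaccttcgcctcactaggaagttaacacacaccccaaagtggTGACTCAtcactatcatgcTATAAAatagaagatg
Mmp12, chr9:7347124-7347373: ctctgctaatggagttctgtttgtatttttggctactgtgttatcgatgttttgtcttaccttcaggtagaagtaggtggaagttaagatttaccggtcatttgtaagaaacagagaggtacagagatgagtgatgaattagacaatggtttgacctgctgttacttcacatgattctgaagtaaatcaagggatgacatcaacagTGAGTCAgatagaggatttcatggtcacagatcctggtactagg
Mmp3, chr9:7445722-7445821: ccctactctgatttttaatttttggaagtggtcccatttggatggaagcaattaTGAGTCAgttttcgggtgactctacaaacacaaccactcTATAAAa
Mmp10, chr9:7502242-7502341: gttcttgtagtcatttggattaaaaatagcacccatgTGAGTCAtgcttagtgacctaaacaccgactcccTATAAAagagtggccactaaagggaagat
Mmp7, chr9:7691990-7692089: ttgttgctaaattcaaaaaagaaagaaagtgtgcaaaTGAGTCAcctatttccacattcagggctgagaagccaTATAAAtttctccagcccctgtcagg
Adamts1, chr16:85803114-85803363: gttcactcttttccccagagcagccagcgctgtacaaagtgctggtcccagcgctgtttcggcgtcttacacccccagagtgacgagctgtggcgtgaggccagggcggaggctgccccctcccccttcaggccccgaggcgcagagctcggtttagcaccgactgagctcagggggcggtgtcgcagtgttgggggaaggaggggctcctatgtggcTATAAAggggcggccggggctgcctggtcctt
Mmp14, chr14:54431348-54431597: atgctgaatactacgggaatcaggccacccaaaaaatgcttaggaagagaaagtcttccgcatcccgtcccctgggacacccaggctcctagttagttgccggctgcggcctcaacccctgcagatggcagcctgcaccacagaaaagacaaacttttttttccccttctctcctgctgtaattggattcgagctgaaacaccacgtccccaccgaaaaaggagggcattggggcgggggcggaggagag

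With all peaks and a window of 1000 bp, promoters of the matrix protease genes were accessible about as often as those of other genes. The families differed among themselves. A promoter peak in both libraries was found at 27 of the 50 genes (54.0%), where 57.2% of all protein-coding genes had one. By family this was 3 of 4 Timp, 9 of 22 Mmp, 12 of 19 Adamts and 3 of 5 Adamtsl genes. Within the Mmp family, 1 of the 9 genes of the chromosome 9 cluster and 8 of the other 13 had one. Taken separately, replicate 1 had a promoter peak at 56.0% of the 50 genes and replicate 2 at 64.0% (60.0% ± 5.66, SD, n = 2), beside 57.5% and 61.7% of all genes (59.6% ± 2.96). A promoter peak was found in replicate 1 alone at Adamts19 and in replicate 2 alone at Timp4, Mmp3, Mmp16, Mmp21 and Adamts13. The remaining 17 genes had none in either library. Of all 21938 protein-coding genes, 59 had one in replicate 1 alone, 978 in replicate 2 alone and 8349 in neither. With the stronger 50% of peaks, 20 of the 50 genes had a promoter peak in both libraries, beside 51.4% of all genes. A window of 500 bp gave 23 of the 50 beside 54.4%, and one of 2500 bp gave 32 beside 63.2%. With 1 group of 2 libraries these shares are descriptions without a test.

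Where these promoters were open, they were mostly less accessible than a typical open promoter. The strongest shared promoter peak of the 27 genes had a median mean percentile of 77.1 over both lists, and the lowest and highest were 24.1 at Mmp9 and 99.2 at Adamts1. Over all genes with a promoter peak in both libraries the median percentile of the strongest promoter peak was 91.9 in replicate 1 and 95.1 in replicate 2. For the 27 genes these medians were 71.5 and 82.6. In 5 of the 27 genes, Adamts1, Adamts12, Adamts6, Adamtsl4 and Mmp14, the strongest shared promoter peak ranked in the top 10% of both lists. In Mmp9 and Adamts2 it ranked in the lower 50% of both. High ranks are usual at open promoters, as the median mean percentile was 93.4 over all genes with a shared promoter peak. The shares of all genes that meet these 2 limits were not computed. In 20 of the 27 genes the strongest shared promoter peak was centred no more than 500 bp from a start of the gene. In all 27 the nearest protein-coding start was that of the gene itself. Both counts follow in large part from the rule, which takes only peaks that overlap within 1000 bp of a start of the gene. The same counts over all genes were not computed.

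**Figure D1:**
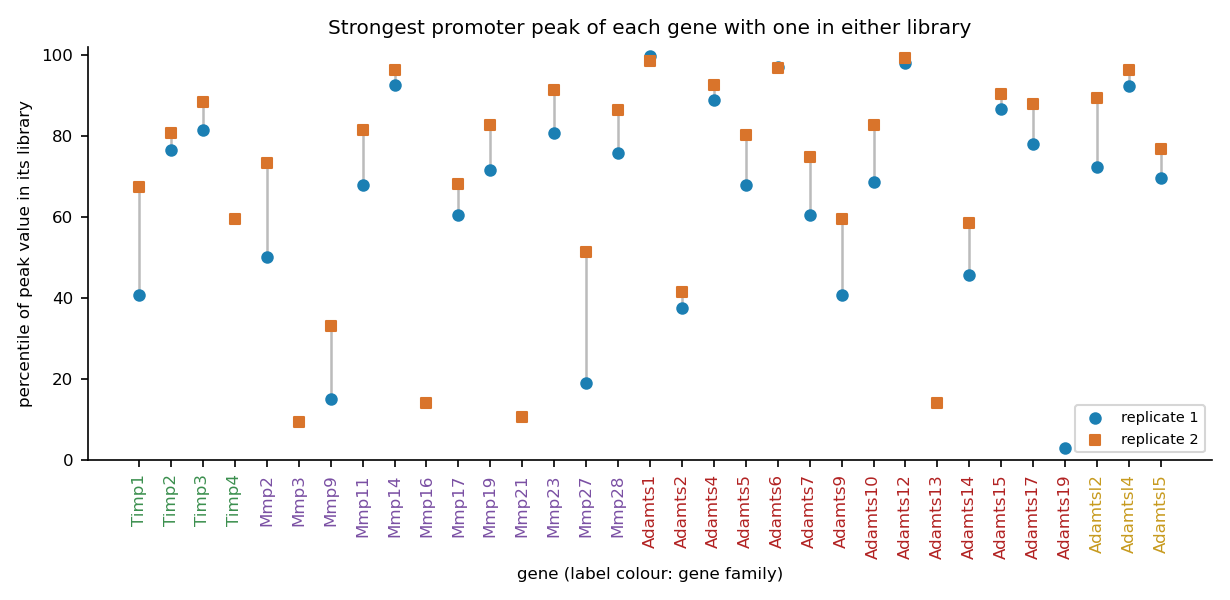
Percentile of the strongest promoter peak, from 0 for the weakest to 100 for the strongest peak of a list, in replicate 1 (circles) and replicate 2 (squares) for every Timp, Mmp, Adamts and Adamtsl gene with a promoter peak in either library. Adamts1, Adamts12 and Adamts6 stand near the top in both libraries, Mmp9 stands at 15.1 and 33.0, and 6 genes have a point from 1 library only.

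Among the inhibitors, 3 of 4 had an open promoter in both libraries. Timp1, a secreted inhibitor induced by many growth signals, had its promoter peak on the X chromosome from 20870096 to 20870265 with values of 39 in replicate 1 and 87 in replicate 2. Timp2, which both inhibits Mmp2 and helps Mmp14 activate it, had values of 70 and 106 at a peak 106 bp past a start. Timp3, the inhibitor that stays bound to the matrix and also blocks Adamts enzymes, had values of 77 and 120. The Timp3 peak lay at a start inside the gene and not at its 5′ end, where no promoter peak was called in both libraries. The percentiles were 40.8 and 67.3 for Timp1, 76.5 and 80.8 for Timp2, and 81.4 and 88.5 for Timp3. Timp1 was thus the weakest of the 3 in both lists.

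Timp4, an inhibitor described mainly in heart, brain and fat, differed between the libraries. It had 6 promoter peaks in replicate 2, the strongest with a value of 78 at the percentile 59.5, and none in replicate 1. Its distal peaks followed the same division, with 4 in replicate 2, 0 in replicate 1 and 0 shared. The state of Timp4 thus depended on the library, and its distal count also on the start sites used: with those of protein-coding transcripts alone it had 10 distal shared peaks.

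The inhibitors had 18 distal shared peaks, and Timp3 held 16 of them, with the starts of all annotated transcripts. With those of protein-coding transcripts alone Timp3 kept a count of 16 beside the 10 of Timp4. Timp3 had 16 distal peaks in replicate 1 and 30 in replicate 2, and Timp1 and Timp2 had 1 shared peak each. At Timp2 the count was 1 in replicate 1 and 7 in replicate 2. The 2 strongest distal peaks of Timp3 lay next to each other in an intron of the gene, 37.0 and 37.3 kb past a start, with values of 102 and 142, and 103 and 140. The first of them is the Timp3 sequence printed above without a match, and the weaker Timp3 peak with both an AP-1 and a C/EBP match (36 and 76) lay 4.6 kb past a start. Timp1, Timp3 and Timp4 lie within the synapsin genes Syn1, Syn3 and Syn2, respectively, on the opposite strand. Timp4 also lies within the protein-coding gene Gm17482, again on the opposite strand, and Timp2 lies within no other protein-coding gene.

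For distal peaks a gene's territory, the stretch in which its start is the nearest within reach, sets how many peaks could fall to it. The genome as a whole had 4.95 assigned distal shared peaks per 100 kb of territory. At that rate the territories of the 50 genes would hold 261.7, and 263 were found. The same rate was applied at all distances, although 40.4% of all assigned distal shared peaks lay within 10 kb of a start. Long territories may thus fall below the count from this rate, and short ones above it, for any gene. Per gene the median was 3 beside 2 over all protein-coding genes, and the median territory was 55.2 kb beside 40.7 kb. At least 10 distal shared peaks were assigned to 12 of the 50 genes (24.0%), beside 9.93% of all genes. None was assigned to 9 of the 50, beside 32.2% of all genes. Percentiles of density given below are among protein-coding genes with a territory of at least 10 kb.

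The families again differed. Adamts genes had a median of 8 distal shared peaks and 154 in all, where their territories would hold 140.1. Timp genes had a median of 1 and 18 in all beside 12.5, and Mmp genes had a median of 1.5 and 56 in all beside 60.3. Adamtsl genes had a median of 7 and 35 in all beside 48.8. Counts also went with the promoter state. The 27 genes with a promoter peak in both libraries had 190 distal shared peaks where territory would give 111.3, and the 23 others had 73 where it would give 150.4. Over all protein-coding genes the same division gave 59799 beside 44285.9 and 18570 beside 34083.1.

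**Figure D2:**
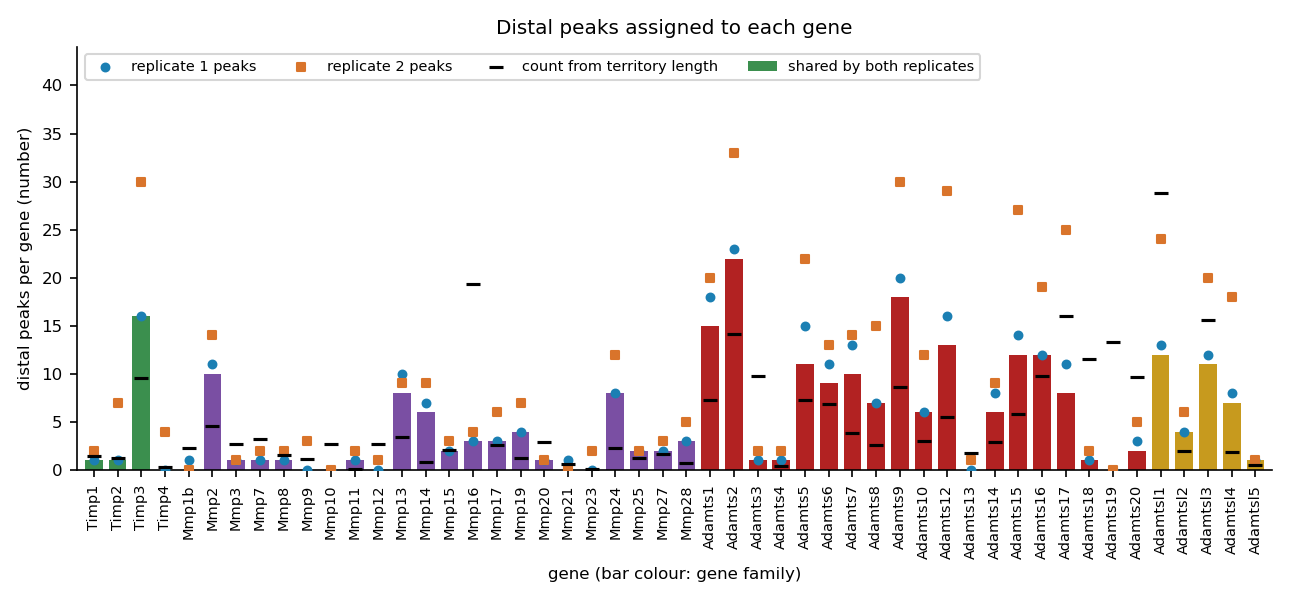
Number of distal peaks assigned to each of the 50 genes: bars are peaks shared by both libraries, and circles and squares are peaks of replicate 1 and replicate 2. Dashes are the shared count expected from territory length at a uniform rate. Bar colours mark the families, from left to right Timp, Mmp, Adamts and Adamtsl; Adamts2 has the highest bar at 22, and Mmp16 and Adamtsl1 show dashes far above their bars.

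Of the 13 Mmp genes outside the cluster, 8 had an open promoter in both libraries, among them the collagenase Mmp14 and the gelatinase Mmp2. Mmp14, a membrane-bound collagenase that activates Mmp2, had a promoter peak at −82 bp with values of 100 and 138. The sequence under it is the Mmp14 promoter printed above, which held no AP-1 or TATA match. It had 6 distal shared peaks (7 in replicate 1 and 9 in replicate 2) in a territory of 17.2 kb. That density of 34.9 per 100 kb stood at the percentile 99.5 of the protein-coding genes with a territory long enough to be ranked. The strongest of them, in an exon of Mmp14 5.3 kb past a start, had values of 109 and 140, above those of the promoter peak in both lists.

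Mmp2, a gelatinase of stromal cells, had a promoter peak at its start with values of 45 and 95. A second promoter peak, in an intron at a further start of the gene, had values of 42 and 94. Mmp2 had 10 distal shared peaks (11 and 14) where territory would give 4.56, and the strongest lay upstream at −8.9 kb with values of 90 and 129. Mmp9, the other gelatinase and one known mainly from inflammatory cells, differed from it. Its only shared peak had values of 25 and 56 and lay at −926 bp from a start inside the gene, and it had no distal shared peak, with 0 in replicate 1 and 3 in replicate 2. That start belongs to a transcript that is not protein-coding, and without it Mmp9 had no promoter peak in both libraries and 1 distal shared peak.

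Mmp11, or stromelysin-3, a stromal enzyme activated inside the cell, had a promoter peak with values of 60 and 107 at −58 bp. Mmp19, an enzyme of broad substrate range, had one with values of 64 and 109 at 20 bp past its start. Both promoters ranked near the median of the 27 genes. Mmp11 had 1 distal shared peak (1 and 2), or 3 with the starts of protein-coding transcripts alone. Mmp19 had 4 distal shared peaks (4 and 7), of which a pair lay upstream at −11.3 and −11.7 kb with values of 97 and 130, and 95 and 128. The nearer of these is the Mmp19 sequence printed above with a glucocorticoid receptor and an AP-1 match.

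The other Mmp genes with an open promoter were Mmp17, Mmp23 and Mmp28. Mmp23, which had the strongest of these with values of 76 and 126, has a territory of 2.0 kb and no distal shared peak. Mmp28 had 3 distal shared peaks (3 and 5) in 14.4 kb, a density at the percentile 97.1, among them the peak with a PPAR-RXR match. Mmp17 had 3 (3 and 6) in 51.9 kb. None of these 3 genes had more distal shared peaks than Mmp14.

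A further group outside the cluster had no promoter peak in both libraries. Mmp24, a membrane-type enzyme of neurons, had hotspots, which are the authors' wider calls of raised cutting, at its promoter in both libraries but no peak in either. It had 8 distal shared peaks where territory would give 2.27. Mmp15 and Mmp25, both membrane-bound, had no promoter peak and 2 distal shared peaks each. Mmp16 had a promoter peak with a value of 43 in replicate 2 alone and 3 distal shared peaks in a territory of 392.2 kb, where 19.40 would be expected. Mmp21 had one with a value of 40 in replicate 2 alone and no distal shared peak. The values at Mmp16 and Mmp21 stood at the percentiles 14.1 and 10.5 of replicate 2, so these single-library peaks were weak.

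The Mmp cluster of chromosome 9 held few accessible sites. Its 9 protein-coding genes, in chromosome order Mmp13, Mmp12, Mmp1b, Mmp3, Mmp10, Mmp8, Mmp27, Mmp20 and Mmp7, span 427.1 kb from 7272514 to 7699585 with no other protein-coding gene between them. The span held 9 peaks in replicate 1, 13 in replicate 2 and 8 shared peaks, where the mean of the genome would give 18.4. That is 1.87 shared peaks per 100 kb beside 4.31 for the genome. They include the collagenases Mmp13 and Mmp8, the stromelysins Mmp3 and Mmp10, the macrophage elastase Mmp12, the matrilysin Mmp7 and the enamel enzyme Mmp20. Mmp27 alone had a promoter peak in both libraries, with values of 27 and 70 at −666 bp and a weaker one of 23 and 54 at −16 bp. Mmp3 had a promoter peak at −92 bp with a value of 39 in replicate 2 alone, at the percentile 9.4. The other 7 had no promoter peak in either library.

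Distal peaks of the cluster lay mainly at its Mmp13 end. The 9 genes had 14 distal shared peaks, where territory would give 23.3. Their 2.98 per 100 kb of territory was near the 2.7 of all protein-coding genes without a promoter peak in both libraries. Of the 14, 8 were assigned to Mmp13 (10 distal peaks in replicate 1 and 9 in replicate 2), where territory would give 3.39. Of these 8, 6 lay together upstream of the Mmp13 start, on chromosome 9 between 7245456 and 7254425. The strongest pair had values of 97 and 129 (7253376 to 7253545, at −19054 bp) and of 93 and 127 (7247996 to 7248145, at −24444 bp). Their percentiles ran from 89.8 to 92.6, and the Mmp13 promoter itself had no called peak. Mmp27 had 2 distal shared peaks, one of them among the strongest of the cluster with values of 114 and 135, 23897 bp past its start. Mmp3, Mmp7, Mmp8 and Mmp20 had 1 each, and Mmp1b, Mmp10 and Mmp12 had none.

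**Figure D3:**
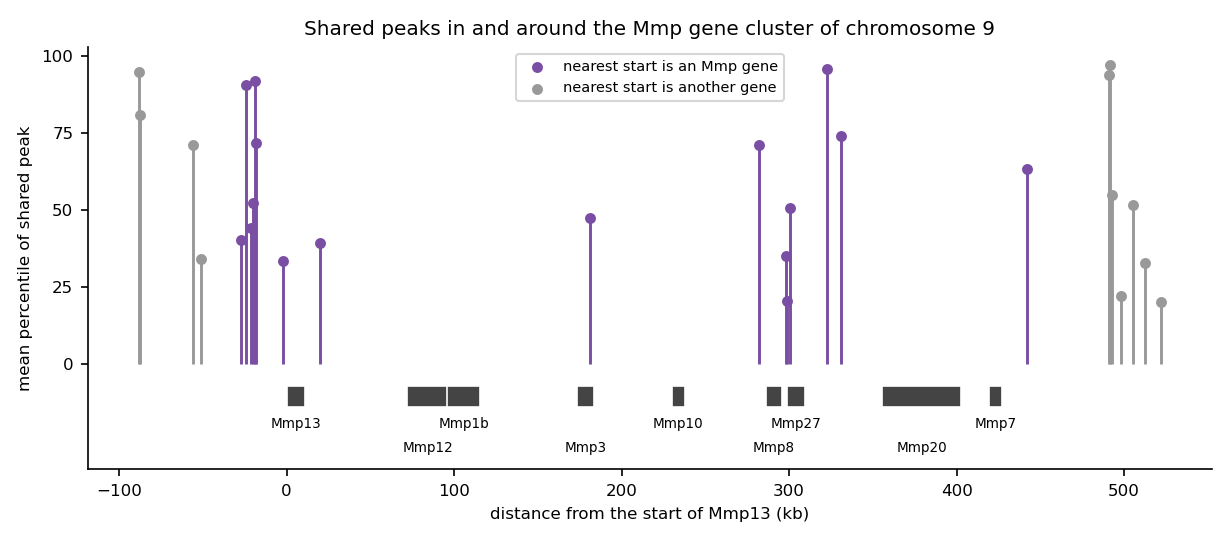
Shared peaks in and around the Mmp cluster of chromosome 9, by distance from the start of Mmp13 in kb (x) and mean percentile over both lists (y), in purple where the nearest protein-coding start is an Mmp gene and in grey otherwise. Dark boxes are the 9 genes; peaks crowd upstream of Mmp13 and around Mmp27, while the stretch from Mmp12 to Mmp10 holds 1 shared peak.

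The promoters of the cluster shared sequence features. The genes were taken by symbol, but genes and motifs were chosen with earlier results of these data known. AP-1 letters (TGACTCA, either strand) were found in the 250 bp before the start at 6 of the 9 cluster genes and in 6 of their 11 RefSeq promoters (54.5%). Of the 38 promoters of matched members, the same 6 were all that held them (15.8%), beside 4.04% of the 20150 promoters of all protein-coding genes. The matches lay at −35 to −29 in Mmp13, −44 to −38 in Mmp12, −93 to −87 in Mmp1b, −46 to −40 in Mmp3, and −63 to −57 in both Mmp10 and Mmp7. TATA box letters (TATAAA, gene strand) were found in 6 of the 11 cluster promoters (54.5%), beside 7.38% of all. Both motifs stood together in 5 of the 11 (45.5%), beside 0.486% of all.

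Of these 6 genes with AP-1 letters, Mmp3 had them within its promoter peak of replicate 2 alone (39, percentile 9.4). None of the 6 had a promoter peak in both libraries. Outside the matched promoters, Mmp19 did have one, and that peak held AP-1 letters on the minus strand from 128790878 to 128790884 of chromosome 10, just before its start. Among the 18 RefSeq promoters, of 17 of the 27 members with such a peak, 0 held the AP-1 letters. TATA letters were in 2 of the 18, those of Adamts1 (−32 to −27) and Adamtsl2 (−30 to −25). Over all genes with a promoter peak in both libraries, 3.3% of promoters held AP-1 letters and 4.0% held TATA letters. A count of 0 among 18 is close to that share of 3.3%. Over all genes without such a peak the shares were 5.29% and 13.0%. A match describes letters only and is not evidence of a bound factor. The base composition of the cluster promoters differed as well. The ratio of observed to expected CpG within 500 bp of the start had a median of 0.12 in the cluster, 0.52 over the 50 genes and 0.55 over all protein-coding genes. It was 0.59 for members with a promoter peak in both libraries and 0.34 for those without, beside 0.71 and 0.23 over all genes. The part of CpG content in the promoter state was not tested.

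**Figure D4:**
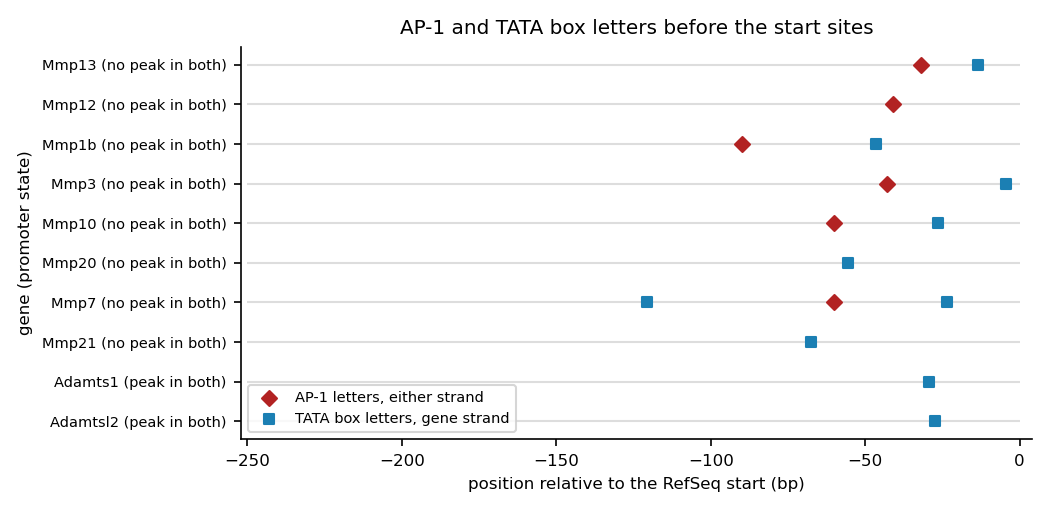
Positions of AP-1 letters (diamonds) and TATA box letters (squares) in the 250 bp before the RefSeq start, in bp, for every member promoter that holds either. The 6 genes with a diamond are Mmp13, Mmp12, Mmp1b, Mmp3, Mmp10 and Mmp7, all without a promoter peak in both libraries.

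Among the Adamts enzymes that cut proteoglycans, Adamts1, Adamts5, Adamts9 and Adamts15 had 11 or more distal shared peaks. Adamts4 had 1 where territory would give 0.43, and Adamts20 had 2 where it would give 9.70. Adamts1, which cuts versican and aggrecan, had its strongest promoter peak in an intron 601 bp past an internal start, with values of 135 and 144. A further peak covered its 5′ end, with values of 100 and 143, and replicates 1 and 2 had 8 and 7 promoter peaks in all. It had 15 distal shared peaks (18 and 20) where territory would give 7.29. Adamts5, an aggrecan-cutting enzyme and its neighbour on chromosome 16, had a promoter peak (60 and 105) and 11 distal shared peaks (15 and 22; 7.29 from territory). Adamts4, the third classic aggrecanase, had a promoter peak of 91 and 129 at an internal start and 1 distal shared peak in a territory of 8.8 kb. All 3 aggrecanases therefore had an accessible start, with that of Adamts1 the strongest in both lists.

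The starts of Adamts1 and Adamts5 lie 98.7 kb apart, and both genes are on the minus strand. Past the 3′ end of Adamts1, 6 shared peaks stood between 46.8 and 56.6 kb from its 5′ end, with mean percentiles from 51.2 to 99.4. The strongest of the 6, on chromosome 16 from 85756216 to 85756505, had values of 126 and 148. It is the Adamts1 sequence printed above with AP-1 letters at 85756341 to 85756347 and at 85756463 to 85756469. The distal peaks of Adamts5 were weaker, with a highest mean percentile of 59.2 in an intron of the gene. Assignment to the nearest start does not show which gene a peak acts on.

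**Figure D5:**
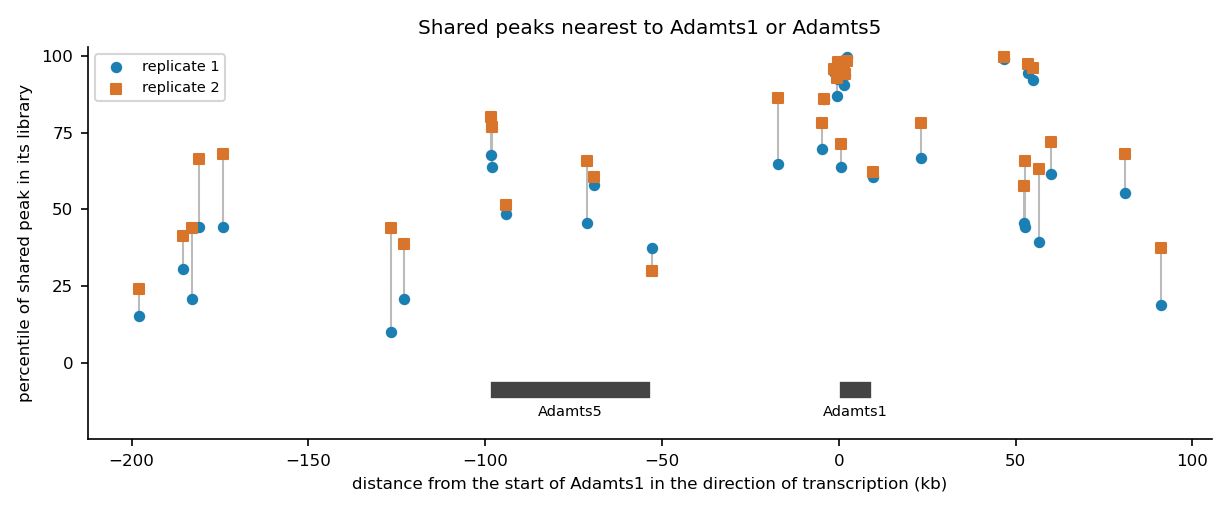
Shared peaks whose nearest protein-coding start is that of Adamts1 or Adamts5, by distance in kb from the 5′ end of Adamts1 in its direction of transcription (x) and percentile in replicate 1 (circles) and replicate 2 (squares). The strongest peaks lie at the Adamts1 start and in a group that begins 46.8 kb past it, and those around Adamts5 rank lower.

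Adamts9, Adamts15 and Adamts8, further proteoglycan-cutting enzymes, had 18, 12 and 7 distal shared peaks and differed in their promoters. Adamts9 had a promoter peak (39 and 78) and 18 distal shared peaks (20 and 30; 8.59 from territory). Its strongest distal peak lay 2.0 kb past a start with values of 107 and 138, above its promoter peak in both lists. Adamts15 had 1 shared promoter peak, with values of 86 and 124, which reaches into the window of an internal start but is centred 1050 bp from it. That peak is also counted among its 12 distal shared peaks (14 and 27; 5.81 from territory), and with a window of 500 bp Adamts15 had no promoter peak in both libraries. Its strongest distal peak, past the end of the gene, had values of 99 and 117. Adamts8, its neighbour on chromosome 9 on the other strand, had no promoter peak in either library and 7 distal shared peaks (7 and 15), the strongest at −2052 bp with values of 83 and 125. Adamts20 had no promoter peak and 2 distal shared peaks where 9.70 would be expected.

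Of the procollagen N-proteinases, which trim fibrillar procollagens, Adamts2 had 22 distal shared peaks (23 and 33), the highest count among the 50 genes at a reach of 100 kb from all annotated starts, where territory would give 14.17. That rank did not hold under other settings. Adamts2 had 15 with the starts of protein-coding transcripts alone, where Adamts9 had 17 and Timp3 16, and both Adamts2 and Adamts9 had 13 within 50 kb. Within 20 kb Adamts2 had 4 and Adamts9 8, and among the stronger 50% of shared peaks they had 6 and 13. Its promoter peak was weak, with values of 37 and 62 at the percentiles 37.5 and 41.4. Its strongest distal peak, in an intron 67.6 kb past a start, had values of 107 and 133. Adamts14 had a promoter peak (42 and 77) and 6 distal shared peaks (8 and 9). Adamts3 had no promoter peak in either library and 1 distal shared peak (1 and 2) where 9.80 would be expected. The 3 enzymes of this activity thus ranged from 1 to 22 distal shared peaks.

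Adamts7 and Adamts12, both known to cut the cartilage protein Comp, had open promoters. Adamts12 had one of the strongest of the set, with values of 119 and 147 at −130 bp, and 13 distal shared peaks (16 and 29; 5.51 from territory). The strongest of these, in an intron 51.7 kb past a start, had values of 110 and 138 and holds the C/EBP match printed above. Adamts7 had promoter values of 53 and 97 and 10 distal shared peaks (13 and 14; 3.88 from territory). Both genes had more distal shared peaks than territory length would give.

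Adamts6 and Adamts10, which act on fibrillin microfibrils, also had open promoters. Adamts6 had values of 114 and 139 at −855 bp and 9 distal shared peaks (11 and 13). Adamts10 had values of 61 and 109 and 6 distal shared peaks (6 and 12). The strongest distal peak of Adamts10, at −20.4 kb, had values of 115 and 149. Adamts17 had promoter values of 72 and 119 and 8 distal shared peaks (11 and 25) where 15.98 would be expected. Adamts13, the enzyme that cuts von Willebrand factor in blood, had a promoter peak with a value of 43 in replicate 2 alone and no distal shared peak.

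The remaining Adamts genes had no promoter peak in both libraries. Adamts16 had none in either and 12 distal shared peaks (12 and 19; 9.80 from territory), of which the strongest, in an intron 52555 bp past a start, had values of 100 and 135. Adamts18 had 1 distal shared peak where 11.53 would be expected. Adamts19 had a promoter peak in replicate 1 alone, with a value of 17 at the percentile 3.0, and no distal peak in either library in a territory of 268.3 kb. Adamts16 and Adamts19 both have long territories and no promoter peak shared by the libraries, and they had 12 and 0 distal shared peaks.

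The Adamtsl genes divided by length. Adamtsl4 and Adamtsl2, which bind fibrillin, and Adamtsl5 are genes of 11.7, 29.6 and 9.3 kb and had promoter peaks in both libraries. Their promoter values were 99 and 138 at Adamtsl4, 65 and 122 at Adamtsl2, and 62 and 100 at Adamtsl5. Adamtsl4 had 7 distal shared peaks (8 and 18) in 37.4 kb, a density at the percentile 96.0, and its strongest, 9.0 kb past a start, had values of 116 and 146. Adamtsl2 and Adamtsl5 had 4 and 1. Adamtsl1 and Adamtsl3, with gene lengths of 914.2 and 278.8 kb, had no promoter peak in either library. Adamtsl1 had 12 distal shared peaks (13 and 24) where 28.77 would be expected, and the strongest had values of 70 and 118. Adamtsl3 had 11 (12 and 20) where 15.64 would be expected, and the strongest had values of 58 and 98. With the starts of protein-coding transcripts alone Adamtsl1 had 8 and Adamtsl3 had 7, and no territory was computed for those starts. Their counts of 12 and 11 are therefore below those that a uniform rate gives for such long territories, although they rank high among all genes by number. The part of territory length in this was not tested.

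The 263 distal shared peaks resembled those of other genes in place and sharing. Introns of the gene itself held 128 (48.7%), introns of another gene 14, intergenic sequence 109 (41.4%) and exons 12 (4.56%). Over all 78369 assigned distal shared peaks, introns held 51.0%, intergenic sequence 44.1% and exons 4.83%. The median distance to the nearest start was 19.9 kb beside 14.3 kb over all, and 43.3% lay upstream beside 47.1%. Of the distal peaks of these genes in replicate 1, 90.6% (exact binomial 95% interval 86.7 to 93.7) were found in replicate 2, beside 91.9% over all genes. Of those in replicate 2, 55.2% (50.6 to 59.7) were found in replicate 1, beside 53.2%. The intervals cover counting error only. A mean percentile of at least 90 over both lists was reached by 31 of the 263 (11.8%) beside 8.23% over all, while the median percentiles were 45.6 and 66.5 beside 51.4 and 68.9.

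Motif letters in the central 150 bp of these peaks were about as frequent as in all distal shared peaks. All motifs were searched on both strands. AP-1 letters were in 18 of the 263 (6.84%, exact binomial 95% interval 4.11 to 10.6) beside 7.82% of all, in peaks of 14 genes. C/EBP letters were in 37 (14.1%, 10.1 to 18.9) beside 12.8%, in peaks of 17 genes, among them Adamts1, Adamts2, Adamts5, Adamts9, Mmp2, Mmp13 and Timp3. TEAD letters (CATTCC), the site of factors that read cell stretch, were in 34 (12.9%, 9.12 to 17.6) beside 10.1%. RUNX letters (TGTGGT) were in 36 (13.7%, 9.77 to 18.4) beside 12.1%. In each of these 4 motifs the share over all peaks lay within the interval of the members.

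Rarer motifs gave few matches. PPAR-RXR letters were in 2 peaks (0.76%, 0.0922 to 2.72), at Mmp16 and Mmp28, beside 0.635% of all, and glucocorticoid receptor letters in 1 peak, at Mmp19, beside 0.475%. CTCF letters (CCACNAGGNGG) and SP/KLF letters (GGGCGG) were in 8 peaks each (3.04%), beside 3.64% and 3.94%. EBF letters (TCCCNNGGGA) were in 4 and ETS letters (CCGGAAG) in 3, beside 1.1% and 0.897%. NFI letters (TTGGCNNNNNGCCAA) and NF-kB letters (GGGANNTTCC) were in none of the 263, which allows a share of up to 1.39% by the exact binomial interval, beside 0.111% and 0.726% of all. AP-1 and C/EBP letters stood together in 1 peak (0.38%), at Timp3, beside 0.863% of all.

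Other genes of matrix proteolysis were read the same way. Of 53 such genes 35 (66.0%) had a promoter peak in both libraries, beside 57.2% of all genes. This was so for 8 of 10 ADAM family genes, 3 of 5 tolloid proteases and their enhancers and 4 of 7 genes of plasminogen activation. It was also so for 3 of 4 proprotein convertases and 5 of 6 genes of cathepsins and Htra1. Of further inhibitors and inducers of Mmp enzymes 3 of 6 had one, and of substrates of Mmp and Adamts enzymes 9 of 15. Furin, which activates membrane-type Mmp precursors, had promoter values of 97 and 130. Plau, the urokinase, had no promoter peak in either library and 5 distal shared peaks.

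The 15 substrate genes had 162 distal shared peaks where territory would give 94.3, and a median of 7 beside 3 for the 50 protease and inhibitor genes. Their median territory was also longer, at 139.7 kb beside 55.2 kb. The basement membrane collagen gene Col4a1 had 37 (39 in replicate 1 and 73 in replicate 2), the collagen gene Col1a2 had 24 (27 and 33) and Vcan, the gene of versican, had 20 (24 and 27). Vcan, a substrate of Adamts1, Adamts4, Adamts5 and Adamts9, had promoter values of 103 and 143. Acan, the gene of aggrecan, had no promoter peak in either library and 4 distal shared peaks. Of the 2 substrates, versican thus had a promoter peak in both libraries and aggrecan in neither. Among the ADAM family genes, Adam12 had 30 distal shared peaks (34 and 68), where territory would give 17.57.

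Members at the limits of the rules are given once. Just inside the window of 1000 bp stood the Mmp9 peak at −926 bp (25 and 56), and just outside stood an Adamts15 peak centred at 1050 bp (86 and 124). That peak and an Mmp2 peak centred at 1059 bp overlap the promoter window and were counted both as promoter and as distal peaks. Just inside the reach of 100 kb stood an Adamts5 peak at −99.2 kb (25 and 50), and just outside stood an Adamts15 peak at 100.7 kb (34 and 76). In all, 134 shared peaks whose nearest protein-coding start was that of a member lay beyond 100 kb and were assigned to no gene.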

How the data were processed

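The 2 DNase-seq libraries were taken as deposited, as peak and hotspot lists on mm10 (GRCm38). Per the labels, each library combined more than 1 technical replicate. The authors called regions in each library separately, per the text deposited with each library. The authors' caller, aligner and filters, and the depth, were not given in the sources used here. Column 7 of the peak files is a signal deposited by the authors, on a scale that is not stated, and each hotspot has a deposited −log10 q value, up to 100. Peak signals were used as ranks, and hotspots were read only for presence. Exact duplicate lines (20 and 33) were counted once, and 337 and 603 peaks on other sequences than the chromosomes were left out. Nothing in the labels says whether the cultures were differentiated separately, so the spread between them may be technical.

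Shared peaks, promoter peaks, distal peaks and territories were computed as defined above in Python 3.11.15 with pandas 2.3.3 and pysam 0.24.0, and intervals with scipy 1.17.1. Positions are counted from 1. The procedures were tested on simulated data. Motifs were searched in the central 150 bp of distal peaks and in the 250 bp before RefSeq starts. No test was made, as there was 1 group with 2 libraries, and members are described beside all protein-coding genes. The members, gene lists and motifs were chosen with earlier results of these data known. Every member is named with its promoter state and distal count. Peak values are given for the Timp genes, 10 Mmp and Adamts genes chosen by function, the 10 members with most distal shared peaks and those with a promoter peak in 1 library; others were added after values were seen. Alternatives changed the promoter window, the reach, the overlap, the peaks used, the start sites and the library.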

Additional observations from a re-analysis of the deposited data

How the results depend on the processing

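The number of members with a promoter peak in both libraries, 27, stayed within 1.5 times under all 8 alternatives, from 20 (stronger 50% of peaks, where 51.4% of all genes were called) to 32 (window of 2500 bp and replicate 2 alone, with 63.2% and 61.7% of all genes). With the stronger 50% of peaks Adamts14, Adamts2, Adamts9, Mmp2, Mmp27, Mmp9 and Timp1 lost the call, and with the 5′ end of the gene as the only start Adamts15, Adamts4, Mmp9 and Timp3 did. A window of 500 bp removed Adamts14, Adamts15, Adamts9 and Mmp9, and one of 2500 bp added Adamts16, Adamts8, Adamtsl3, Mmp13 and Mmp24. The 263 distal shared peaks became 132 within 20 kb and 114 in the stronger 50% of shared peaks, and leaving out 1 library gave 298 (replicate 1 alone) to 480 (replicate 2 alone). The median per member, 3, became 1.5 within 20 kb and 1.0 in the stronger 50%, where all genes had 1.0 and 0.0, and 3.0 to 5.5 with 1 library. In the central 300 bp AP-1, C/EBP, TEAD and RUNX letters were in 11.0%, 21.3%, 19.4% and 23.2% of member peaks, beside 11.2%, 19.9%, 18.3% and 22.0% of all distal shared peaks. Why values moved was not tested. No paired analysis was possible because there was 1 group. The unknown depth limits every absent peak.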
